A study of Mus musculus with 2 samples.

Results

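The miR-15/16 family is represented here by 10 of the 1892 probes for mature mouse microRNAs on the array, namely the guide arms mmu-miR-15a-5p, mmu-miR-15b-5p, mmu-miR-16-5p, mmu-miR-195a-5p, mmu-miR-497a-5p and mmu-miR-322-5p and the opposite arms mmu-miR-15a-3p, mmu-miR-15b-3p, mmu-miR-16-1-3p and mmu-miR-195a-3p. The members were listed by probe name, as guide arms that share the family seed and arms cut from the other side of the same precursors. The rule used no measured value, but the list was set with earlier results of these data known. It was not complete, since the opposite arms miR-16-2-3p, miR-322-3p and miR-497a-3p and other probes with the seed, such as miR-1907, were left out. They are given further below. Of the 10 members, 9 were found under their own name, and 1, mmu-miR-497a-5p, carried an older name and was matched by its sequence. The study asked which microRNAs differ between unwounded skin and unwounded oral mucosa, which heals faster. The RNA came from female Balb/c mice, 8 to 10 weeks old and untreated, with dorsal skin as one group and mucosa of the hard palate as the other. Total RNA from 3 animals was pooled for each tissue and 2 µg was hybridised to 1 single-colour (Cy5) array, so each tissue was 1 pool on 1 array and no test between the tissues was possible. The study names the profiled material as epithelium in some places and as tissue samples in others, and it is therefore not known whether deeper layers were included. In such bulk RNA, fewer cells of a type and less RNA per cell cannot be told apart.

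A microRNA precursor folds into a hairpin, and the enzyme Dicer releases a duplex of its 5p and 3p arms. One strand, the guide, is usually retained in an Argonaute protein and pairs with messenger RNAs through its seed, while the other strand, the passenger, is usually degraded, although both may be retained. The guide strands of the miR-15/16 family are known for repressing cyclins, cell cycle kinases and the survival factor Bcl2, and for restraining cell proliferation.

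The sequences are shown because the members were grouped by seed and because the 5p arms are near copies of each other. They are given 5′ to 3′ as RefSeq lists them (GRCm38.p6), with the seed, bases 2 to 8, in capitals. All 10 array targets had the letters of the RefSeq mature sequence. The 6 guide arms share the seed AGCAGCA:
mmu-miR-15a-5p: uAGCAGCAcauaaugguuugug
mmu-miR-15b-5p: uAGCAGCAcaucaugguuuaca
mmu-miR-16-5p: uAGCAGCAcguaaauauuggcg
mmu-miR-195a-5p: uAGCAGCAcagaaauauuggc
mmu-miR-497a-5p: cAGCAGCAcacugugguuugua
mmu-miR-322-5p: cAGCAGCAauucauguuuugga

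The opposite arms do not share that seed, and each has a seed of its own:
mmu-miR-15a-3p: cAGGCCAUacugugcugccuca
mmu-miR-15b-3p: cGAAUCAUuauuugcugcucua
mmu-miR-16-1-3p: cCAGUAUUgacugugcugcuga
mmu-miR-195a-3p: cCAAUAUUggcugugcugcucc

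Counted from the 5′ end, miR-16-5p and miR-195a-5p have the same base at 19 of 21 positions, and miR-15a-5p and miR-15b-5p at 18 of 22. Near-identical targets can hybridise to each other's probes, and how far they did on these arrays was not tested. Among the opposite arms, miR-16-1-3p and miR-195a-3p are alike at 18 of 22 positions, whereas miR-15a-3p and miR-15b-3p are alike at 12 of 22.

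The members' precursors lie at 4 loci, 3 of them with a pair of these precursors close together. Distances to hairpins of other microRNAs, such as the X chromosome neighbours of Mir322 named further below, were not taken. On the minus strand of chromosome 14, Mir15a (chr14:61632027-61632110) and Mir16-1 (chr14:61631880-61631972) lie 54 bases apart inside the span of the long noncoding RNA gene Dleu2. On chromosome 3, plus strand, Mir15b (chr3:69009772-69009835) and Mir16-2 (chr3:69009902-69009996) lie 66 bases apart inside the span of Smc4, which encodes a condensin subunit. On chromosome 11, plus strand, Mir497 (chr11:70234717-70234800) and Mir195a (chr11:70235042-70235135) lie 241 bases apart, and Mir322 lies on the minus strand of the X chromosome (chrX:53054255-53054349) inside the long noncoding RNA gene C430049B03Rik. The table used gives gene spans, and whether a hairpin is exonic or intronic was not determined.

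The hairpins show which arms come from which precursor, with both mature arms in capitals. Mir16-1 and Mir16-2 hold the same 5p arm and different 3p arms, so the miR-16-5p probe reads the product of both loci and the miR-16-1-3p probe that of the chromosome 14 locus:
Mir15b: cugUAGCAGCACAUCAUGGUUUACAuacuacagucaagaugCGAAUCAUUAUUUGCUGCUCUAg
Mir16-1: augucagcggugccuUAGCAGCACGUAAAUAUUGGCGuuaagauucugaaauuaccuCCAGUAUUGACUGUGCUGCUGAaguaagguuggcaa
Mir16-2: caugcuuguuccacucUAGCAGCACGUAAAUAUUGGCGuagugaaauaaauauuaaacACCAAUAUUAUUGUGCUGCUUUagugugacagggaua
Mir195a: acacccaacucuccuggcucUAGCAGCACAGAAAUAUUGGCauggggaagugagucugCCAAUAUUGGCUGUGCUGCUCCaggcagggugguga

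Each probe stood on 2 repeat spots per array, and signals are given in scanner units as deposited. A probe was called detected where the mean of its repeat spots passed the mean of the 16 empty spots by 3 SD, which put the limit at 59.9 for skin and at 71.8 for oral mucosa. Variance stabilizing normalization (VSN), in which every array receives its own background offset and scale, put the signals on a log2 scale, and every difference below is oral mucosa minus skin on that scale. Each difference is followed by the SD of its repeat spots, combined over both arrays where both detected the probe and otherwise from the detecting array alone, which holds technical error within an array and nothing of the variation between animals. A difference of at least 1, which is 2-fold, was called by size. For a probe detected on 1 array only, the other array was set to its own signal or the lowest detected signal there, whichever was higher, and its fold is written as at least that size on the VSN scale. It is no bound under another scaling, since VSN takes an offset from each signal and so widens the differences of dim probes.

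Of all probes, 562 were detected on at least 1 array, and of these 77 (13.7%) were called toward oral mucosa and 83 (14.8%) toward skin, with a median difference of 0.00. Under alternatives that scaled the raw log2 signals or used the processed values, the calls over all probes numbered 80 to 102 in place of 160. Of the 7 epithelial microRNAs listed as markers, including miR-203-3p and miR-205-5p, all were detected on both arrays, 1 call went to each tissue, and their summed signal was 49225 in skin and 48779 in oral mucosa. The 5 mesenchymal markers were all higher in oral mucosa, by 1.01 to 2.17, and their summed signal was 516 in skin and 1871 in oral mucosa. The red blood cell microRNA miR-451a was higher in oral mucosa by 6.22, whereas miR-144-3p and miR-144-5p, the only other red blood cell markers with a matched probe, were detected on neither array, and the 3 probes summed to 141 in skin and 3154 in oral mucosa. Among endothelial and leukocyte markers, miR-126a-3p and miR-150-5p were higher in oral mucosa and the other 5 were detected on neither array, with summed signals of 81.6 in skin and 200.2 in oral mucosa for endothelium and 222 and 459 for leukocytes. Both of these, and miR-143-3p among the mesenchymal markers, passed the detection limit through oral mucosa alone. They could hardly have been called toward skin, so their direction is a description. Of 4 skeletal muscle markers 3 were detected and 0 were called, with miR-1a-3p detected on neither array and summed signals of 297 and 428. The part of any of these cell types in the results below was not tested.

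Of the 10 members, 9 were detected on at least 1 array. Calls toward oral mucosa were made for 4 of the 9, against 13.7% of all detected probes, and a call toward skin for 1 of the 9, against 14.8%. The former were miR-195a-5p, miR-195a-3p, miR-16-1-3p and miR-15a-3p, and the latter was miR-15b-5p. MiR-16-1-3p and miR-15a-3p passed the detection limit through oral mucosa alone and could differ in that direction only, so these counts are given as a description. The differences ran from -1.42 to 1.11 over the 5 detected 5p arms and from -0.29 to 3.37 over the 4 detected 3p arms.

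**Figure D1:**
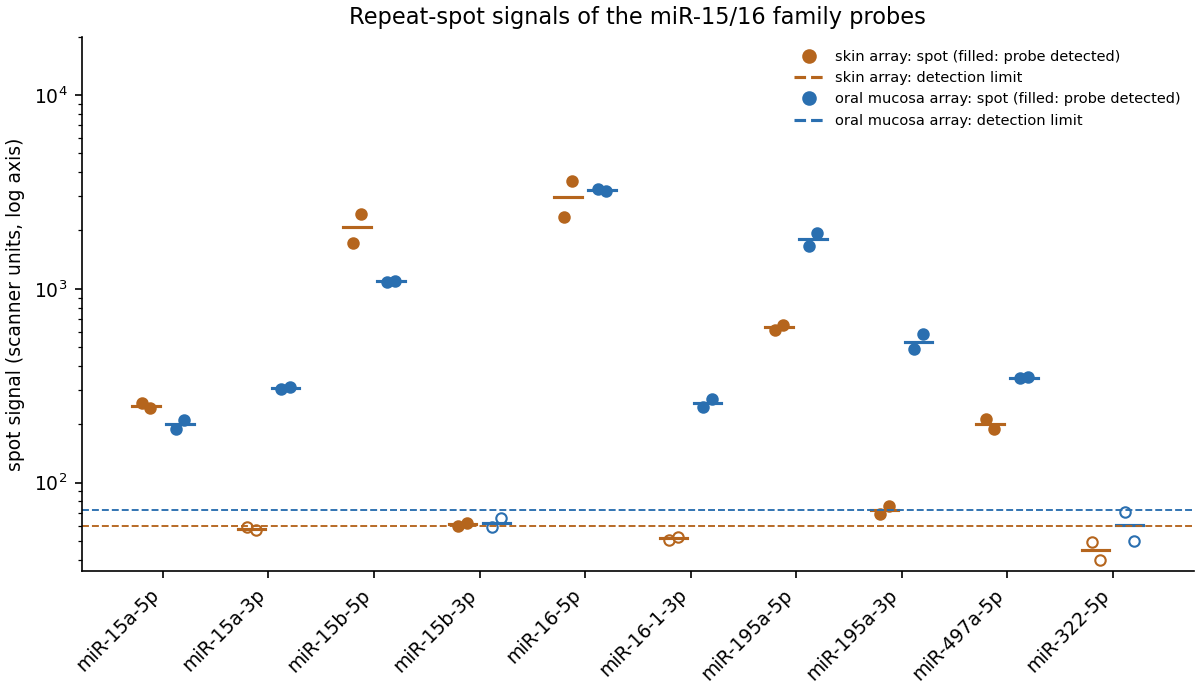
Signal of each repeat spot in scanner units (log axis) for the 10 members, with the skin array in brown, the oral mucosa array in blue, horizontal bars at the mean of the 2 spots, open circles for probes under the detection limit and dashed lines at the limits of 59.9 and 71.8. The miR-15a-3p and miR-16-1-3p spots lie under the limit in skin and at 247 or more in oral mucosa, while the miR-16-5p spots of the arrays overlap.

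The guide arms did not move together. The miR-15b-5p spots read 1734 and 2423 in skin and 1087 and 1100.2 in oral mucosa. Both skin spots lay above both oral mucosa spots, and the difference was -1.42 (SD 0.35), that is 2.67-fold higher in skin. With no normalization between the arrays, the difference was -0.93 and the call was lost.

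The miR-15a-5p spots, from the other miR-15 precursor, read 257 and 243 in skin and 189.9 and 211 in oral mucosa. The groups of spots did not overlap, and the difference was -0.92 (SD 0.15), which did not meet the size rule. It was smaller in size under other scalings, down to -0.32 with no normalization.

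MiR-16-5p, which both loci encode, gave 2351 and 3602 in skin and 3279 and 3192 in oral mucosa. The skin spots lay on either side of the oral mucosa spots, and the difference of -0.34 (SD 0.44) was smaller than the spread of the spots. Its sign turned under quantile normalization (0.20) and with no normalization (0.12), so no direction was given for miR-16-5p.

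The chromosome 11 pair, whose guides are known for holding muscle stem cells and heart muscle cells out of the cell cycle, lay on the other side. The miR-195a-5p spots read 614 and 654 in skin and 1665 and 1950.2 in oral mucosa, all well apart. The difference was 1.11 (SD 0.18), that is 2.15-fold higher in oral mucosa, and it ranged from 1.06 to 1.51 under the 7 other ways of treating the background and scale.

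MiR-497a-5p, encoded next to it, read 212 and 189 in skin and 345 and 351 in oral mucosa. Its spots did not overlap either, but the difference of 0.44 (SD 0.15) did not meet the size rule.

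MiR-322-5p, the mouse counterpart of human miR-424, was detected on neither array, with spots of 49.4 and 39.9 in skin and 70.8 and 50.1 in oral mucosa. All 4 spots were under the detection limits, so no difference was taken, and an absence of the microRNA is not shown by it.

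In order from skin to oral mucosa, the differences of the detected guide arms were thus miR-15b-5p, miR-15a-5p, miR-16-5p, miR-497a-5p and miR-195a-5p. The steps between neighbours were 0.50 (SD 0.38), 0.58 (SD 0.47), 0.78 (SD 0.47) and 0.67 (SD 0.23). The first 3 steps were each less than 2 SD of the repeat spots, and only the step from miR-497a-5p to miR-195a-5p was larger. Although miR-16-5p and miR-195a-5p are alike at 19 of 21 positions, the spots of the tissues overlapped for the first and lay apart for the second.

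The opposite arms lay mostly toward oral mucosa. The miR-15a-3p spots read 59.2 and 56.6 in skin, under the limit, and 302 and 312 in oral mucosa. Taken against the lowest detected skin signal, the difference was 3.10 (SD 0.04, oral mucosa spots), that is at least 8.57-fold higher in oral mucosa on the VSN scale. It was 1.83 with the processed values, 1.95 under quantile normalization and 2.36 with no normalization.

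The miR-16-1-3p spots, from the neighbouring hairpin, read 50.3 and 52.6 in skin, likewise under the limit, and 247 and 271 in oral mucosa. The difference was 2.80 (SD 0.12, oral mucosa spots), that is at least 6.98-fold higher in oral mucosa on the VSN scale. It ran from 1.66 to 2.80 under the 7 other ways of treating the background and scale. For the 3p arms of both chromosome 14 hairpins, skin thus gave no measured level, and the size of the difference depended on the scale.

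The miR-195a-3p spots read 68.5 and 76.0 in skin, not far above the limit of 59.9, and 487 and 582 in oral mucosa. It was the only 3p member detected on both arrays, and its difference was 3.37 (SD 0.30), 10.3-fold on the VSN scale. Compared separately, the pairs of spots at the same place on the arrays gave 3.39 and 3.35. Under the 7 other ways the difference ran from 2.34 to 3.37, and it kept its direction and met the size rule in all 7.

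MiR-15b-3p differed from the other 3p arms. Its spots read 59.9 and 61.6 in skin, with a mean just above the limit, and 58.8 and 65.5 in oral mucosa, under the limit. The spots overlapped, and the difference of -0.29 (SD 0.07, skin spots) did not meet the size rule and turned to 0.24 with no normalization.

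The authors also deposited processed values for the same arrays, whose method is not given in the sources used here. For the 3p arms they had the direction of the VSN differences. They went from 14 in skin to 167 in oral mucosa for miR-16-1-3p, from 23 to 210.0 for miR-15a-3p, from 40.0 to 407 for miR-195a-3p and from 27 to 11 for miR-15b-3p. Among the guide arms they went from 2255 to 917 for miR-15b-5p and from 677 to 1558 for miR-195a-5p. The processed values and the VSN differences thus gave these 6 members the same direction. For miR-15b-3p, however, the mean signals before normalization were 60.8 in skin and 62.1 in oral mucosa. Its spots overlapped, so no direction was given for it.

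**Figure D2:**
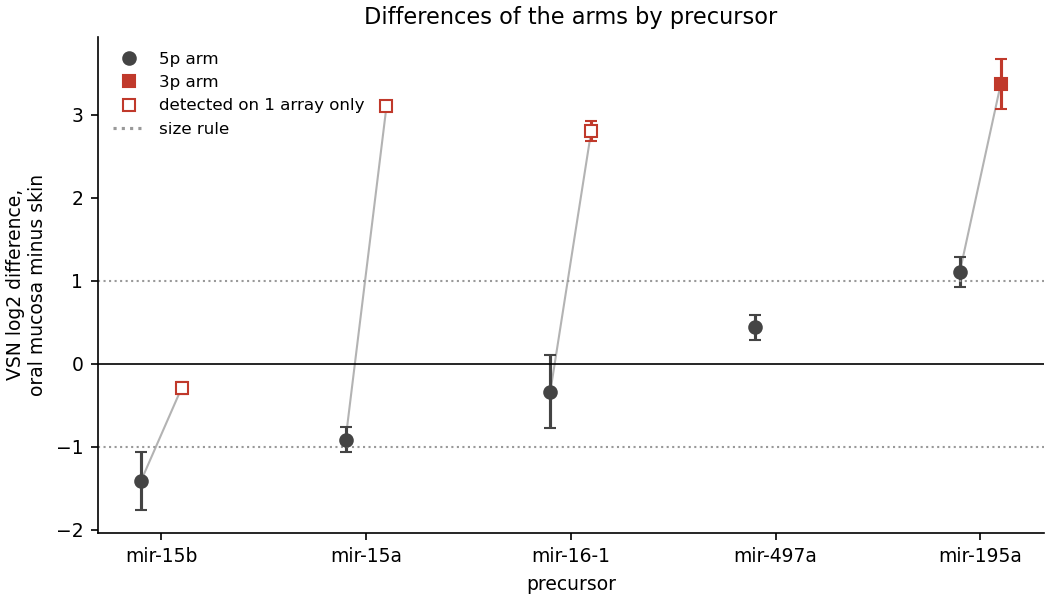
VSN log2 difference, oral mucosa minus skin, of the 5p arm (dark circles) and the 3p arm (red squares) of each precursor, with bars for the SD of the repeat spots, open symbols for arms detected on 1 array only and dotted lines at the size rule. The 3p arm lies above the 5p arm in each of the 4 precursors with both arms detected, from -0.29 against -1.42 in mir-15b to 3.10 against -0.92 in mir-15a, and mir-497a has its 5p arm only.

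Because each arm pair is cut from one hairpin, the arms were also compared by precursor, as the difference of the 3p arm minus that of the 5p arm. This arm gap was 4.02 (SD 0.16) for mir-15a, 3.14 (SD 0.46) for mir-16-1, 2.26 (SD 0.35) for mir-195a and 1.13 (SD 0.36) for mir-15b. All 4 gaps had the 3p arm toward oral mucosa relative to its 5p partner. MiR-15a-3p and miR-16-1-3p were detected through oral mucosa alone, and their gaps could hardly have pointed the other way, so the sign of these gaps is a description and no support. MiR-15b-3p was detected in skin alone, and its gap too rests on a signal set to the lowest detected one. When both arrays had to detect both arms, only the mir-195a gap remained, and the other 3 could not be given. The mir-16-1 gap takes its 5p value from a probe that also reads mir-16-2. In mir-15a the arms pointed in opposite directions, with spots that did not overlap between the tissues for either arm, but the 5p difference did not meet the size rule. Opposite signs of the arms were not particular to mir-15a. They were also found in other precursors, such as mir-99b (5p -0.64, 3p 1.08) and mir-700 (5p 2.13, 3p -0.62).

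The same comparison was made for all precursors on the array. Of 646 with a probe for each arm, 62 had both arms detected on at least 1 array, and in 20 (32.3%) the gap reached 1 with the 3p arm toward oral mucosa, against 8 with the 5p arm toward it. The 4 family precursors were among the 20, and this count too includes arms detected on 1 array alone. The other 58 had a median gap of 0.44, with quartiles of -0.07 and 1.04 and a range from -3.20 to 4.84. The gaps of mir-15a, mir-16-1 and mir-195a lay above that upper quartile on the VSN scale, and the mir-15b gap lay close to it.

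The size of the gaps changed with the processing. Under the 7 other ways of treating the background and scale, the gap was 2.53 to 4.02 for mir-15a, 1.47 to 3.14 for mir-16-1, 1.20 to 2.26 for mir-195a and 1.07 to 1.17 for mir-15b. All 4 gaps stayed at 1 or more in these 7. The share of all precursors with such a gap fell to 19.4% under 5 of the 7. These 7 were not separate checks of the gaps. A constant array scale cancels in a gap, so no normalization and scaling to the median or a percentile gave the same gaps and share. Normexp before VSN nearly repeated VSN, with a mir-15a gap of 4.02 under both. With the detection limit at 5 SD the mir-15b gap could not be given. Without a detection filter the mir-15b gap was 0.46, since its 3p arm then differed by -0.96 on its own values.

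**Figure D3:**
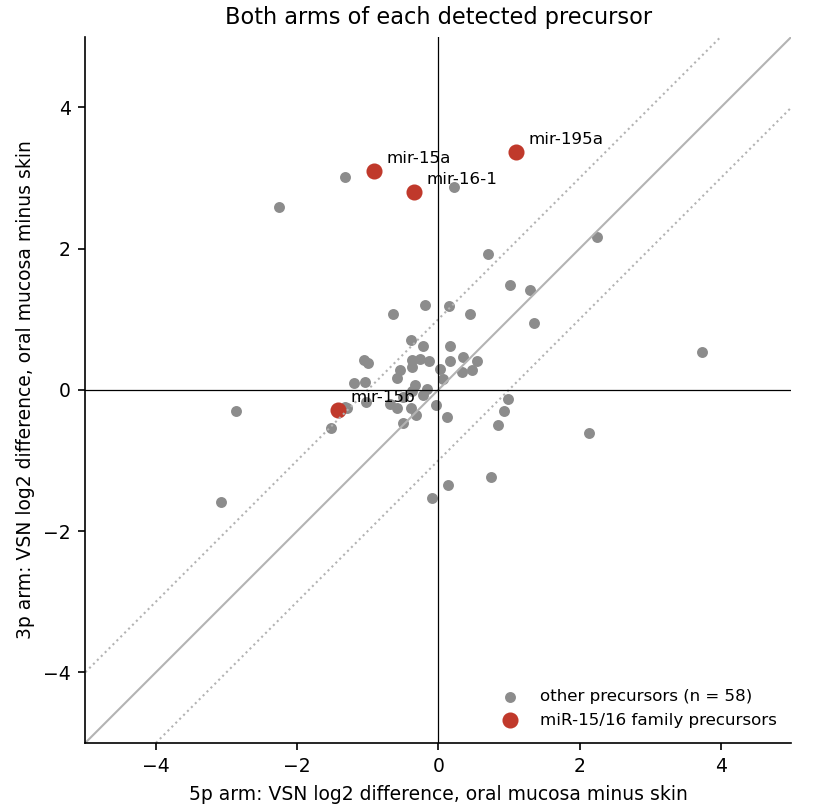
VSN log2 difference, oral mucosa minus skin, of the 5p arm (horizontal axis) and the 3p arm (vertical axis) for the 62 precursors with both arms detected, with the 4 family precursors in red, the solid diagonal where the arms differ equally and dotted lines at an arm gap of 1 either way. Mir-15a, mir-16-1 and mir-195a lie at 3p differences of 2.80 to 3.37, with gaps of 2.26 to 4.02, and mir-15b lies next to the dotted line at 1.13.

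The 3p arms called higher in oral mucosa, 3 in all, hold a run of letters in common outside their seeds, shown here in capitals:
mmu-miR-15a-3p: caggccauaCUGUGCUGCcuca
mmu-miR-16-1-3p: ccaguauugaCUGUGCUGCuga
mmu-miR-195a-3p: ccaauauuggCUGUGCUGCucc

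The run CUGUGCUGC, searched on the microRNA strand, was found in these 3 of the 1892 array targets (0.159%) and in no other. It was noticed after the values were known, so it is a description of these arms. Its shorter core UGCUGC, which lies within it, was found in 17 targets (0.899%), of which 4 members and 13 others. Of the 13 others 5 were detected, of which 1 was called higher in oral mucosa and 1, miR-106b-3p, higher in skin. Over all detected probes these shares were 13.7% and 14.8%. MiR-15b-3p and miR-16-2-3p, neither of them called, hold the core and not the longer run. The core is the reverse complement of a stretch of the family seed AGCAGCA, which the 3p arm faces in the hairpin. It therefore does not set the called arms apart from the other opposite arms of the family. Whether the shared letters let these targets bind each other's probes was not tested.

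The positions of the spots were examined because the miR-15 and miR-16 probes stood together in column 2 of the array, with repeats in column 17. The 6 other detected probes in rows 83 to 109 of column 2 were dimmer there than at their repeats on the skin array, with log2 ratios of the edge spot to its repeat from -1.05 to -0.40 and a median of -0.75, whereas in oral mucosa these ratios ran from -0.10 to 0.14. These 6 probes stood in rows 92 to 106, below the members. Above the members, the detected probes in rows 73 to 75 of column 2 had skin ratios of -0.23 to -0.04. The low skin spots of miR-15b-5p and miR-16-5p are those of column 2, whereas miR-15a-5p in row 84 had a skin ratio of 0.08. Without the outer columns the differences were -1.62 for miR-15b-5p, -0.62 for miR-16-5p, -0.76 for miR-15a-5p, 2.89 for miR-16-1-3p and 3.13 for miR-15a-3p, and the gaps were 3.89 for mir-15a, 3.51 for mir-16-1 and 1.29 for mir-15b. The 3p and 5p probes alternated down the same column, and the median difference of the detected probes within 3 rows and 3 columns of a member was between -0.28 and 0.21 for all 10.

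**Figure D4:**
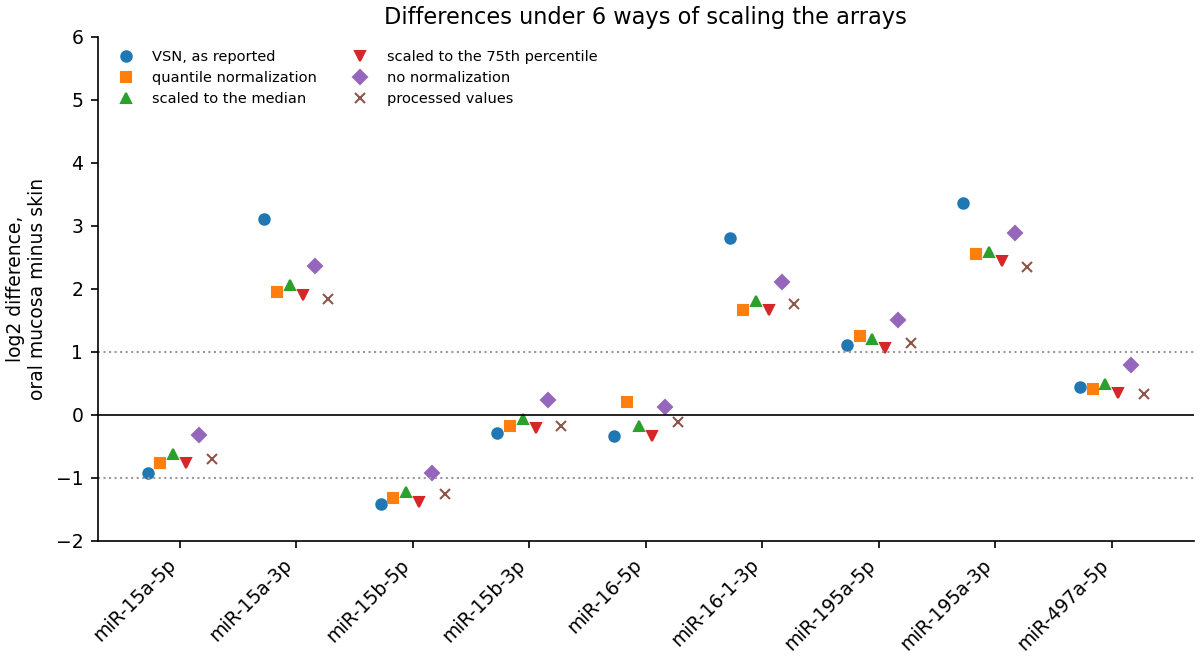
Log2 difference, oral mucosa minus skin, of the 9 detected members under VSN and 5 other ways of scaling the arrays, with dotted lines at the size rule. The 3p arms of mir-15a, mir-16-1 and mir-195a stay at 1.66 or more and miR-195a-5p above 1 under each, miR-15b-5p lies between -0.93 and -1.42, and miR-16-5p lies on either side of 0.

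Besides the members, 5 probes had the family seed, and miR-1907 was the only one detected. Its spots read 590 and 418 in skin and 109 and 93.3 in oral mucosa. The difference was -3.54 (SD 0.48), that is 11.6-fold higher in skin on the VSN scale, which is opposite in direction to miR-195a-5p with the same seed. Before normalization the mean signals were 504 in skin and 101 in oral mucosa, and the size of the difference depends on the scale. The probes for miR-195b, miR-6342, miR-6353 and miR-6419 were detected on neither array.

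The remaining arms and the neighbours of these hairpins were at background. Of 16 such probes, which included miR-16-2-3p, miR-497a-3p, miR-322-3p and the miR-503, miR-351, miR-542 and miR-450 arms of the X chromosome cluster, 0 were detected on either array. MiR-16-2-3p, the opposite arm of the chromosome 3 hairpin, came nearest with a mean of 71.6 in oral mucosa against the limit of 71.8, and 44.4 in skin. An arm gap could therefore be given for mir-16-1 and not for mir-16-2, although both hairpins hold the miR-16-5p arm. How much of the miR-16-5p signal came from either hairpin was not measured.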

How the data were processed

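The authors deposited spot intensity from the scanner (median Cy5 brightness, without background subtraction or normalization) and a processed intensity per microRNA and array, whose method is not given in the sources used here. Per the labels, poly(A)-tailed RNA was ligated to a dye tag and hybridised to in situ synthesised probes.

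Of 3968 spots per array, 184 control spots were left out, except the 16 empty ones that set the detection limit. Repeat spots were averaged. VSN, the normalization named in the study's methods, was fitted by least trimmed squares in Python 3.11.15 (numpy 2.4.6, scipy 1.17.1, pandas 2.3.3). Of 5 slices of probes by intensity, the dimmest was kept whole and 90% of the probes were kept in each of the others. The fit gave offsets of 37.9 for skin and 46.3 for oral mucosa and a scale ratio of 1.37. The fit was also run on simulated data made from its own fitted offsets and scale, in which only brighter probes were changed. That run was no check of probes without signal on 1 array. With 1 array per tissue no p-value was computed, and precision is limited by the number of arrays. The alternatives tried were no normalization, quantile normalization, scaling to the 75th percentile or the median, VSN from a single start, processed values as log2(value + 50), normexp with an offset of 50 (limma 3.58.1, R 4.3.3), other detection filters, size rules of 1.5-fold and 4-fold, and omission of columns 1 and 2.

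The named microRNAs are all members, all probes with the seed of miR-16-5p, and any called arm or cluster neighbour. Members, lists and alternatives were chosen with earlier results of these data known. Sequencing and wound closure data were not analysed here.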

Additional observations from a re-analysis of the deposited data

How the results depend on the processing

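No paired analysis was possible because skin and oral mucosa have 1 array apiece, and no array could be left out. The 4 members called higher in oral mucosa fell to 2 when detection on both arrays was required. The 1 member called higher in skin became 0 with no normalization, 2 at a size rule of 1.5-fold and 0 at 4-fold. The median difference of the detected members, 0.44, was 0.80 with no normalization, which moved the median of all detected probes to 0.40, 0.049 with detection on both arrays and 0.77 with a limit at 5 SD. The mir-15a gap was 2.71 under quantile normalization, 2.68 under scaling to the median, to the 75th percentile and no normalization, 3.60 under VSN from a single start, 2.53 with processed values and 3.24 with the limit at 5 SD. In the same order the mir-16-1 gap was 1.47, 1.99, 2.77, 1.88 and 2.37, and 3.82 without a detection filter. The mir-195a gap was 1.31 under quantile normalization, 1.38 under both scalings and no normalization, and 1.20 with processed values. The mir-15b gap was 0.46 without a detection filter. The share of all precursors with a gap of at least 1 toward the 3p arm, 32.3%, was 19.4% under quantile normalization, both scalings, no normalization and processed values, and 11.3% at 4-fold. Without a detection filter 5 of the 16 other arms and neighbours were called. The probes called in all, 160, were 80 under quantile normalization, 85 under both scalings, 102 with no normalization, 87 with processed values, 577 without a detection filter, 104 with detection on both arrays, and 256 and 46 at 1.5-fold and 4-fold. With detection on both arrays only the mir-195a gap could be given, and at 5 SD the mir-15b gap could not. The causes of these changes were not tested. The single VSN start ended at offsets of 30.0 and 36.6. MiR-15b-3p and the skin spots of miR-15a-3p and miR-16-1-3p lay near or under the detection limit, where signal over background limits the values. The same limit holds for miR-195a-3p, whose skin spots of 68.5 and 76.0 were not far above the limit of 59.9. Its difference was 3.23 with the limit at 5 SD.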
